A study of Mus musculus with 12 samples.

Results

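Serine, one-carbon, asparagine and proline synthesis was followed in primary mouse hepatocytes through 10 genes, chosen by symbol from the 22471 features listed in each library: Phgdh, Psat1 and Psph, Shmt1 and Shmt2, Mthfd2, Mthfd1l and Aldh1l2, Asns, and Pycr1. Oleic acid (OA), a fatty acid given to load the cells with lipid, was accompanied by higher mRNA of 8 of the 10 genes. Over all genes tested, 21.3% were higher and 21.5% lower with OA than in control. Psat1, Mthfd2 and Asns stood at more than 2 times the control level. Benzbromarone (BBR), a uric acid-lowering drug, left 7 of the 10 without a detected change against control. This was close to the share among all genes tested, of which 27.7% were higher or lower with BBR than in control. Shmt1, the cytosolic serine hydroxymethyltransferase, moved apart from the other genes and fell with either agent.

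The 12 RNA-seq libraries came from hepatocytes isolated from male C57BL/6J mice by collagenase perfusion and kept in serum-containing medium, and the labels name the tissue as liver. There were 3 libraries in each of 4 groups: control (neither agent), BBR alone, OA alone, and BBR together with OA (BBR+OA). The study mixed OA with albumin before adding it, and no source used here states whether cells without OA received albumin. The labels name no genetic change in any group. No source used here states whether the 3 replicates of a group were different mice or different wells, so the p-values measure the spread between labelled replicates, which may be technical. Total counts ranged from 15485506 to 23668391 per library, and 3 counts, the limit that a count of 0 allows, equalled 0.127 to 0.194 counts scaled by library size (CPM), a limit that covers counting error only. The 8 hepatocyte markers summed to between 32906 and 40476 CPM, and none was at 0.

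The serine synthesis pathway takes a glycolytic intermediate to serine through Phgdh, Psat1 and Psph. Serine hydroxymethyltransferases then split serine into glycine and a one-carbon unit carried on folate, Shmt1 in the cytosol and Shmt2 in mitochondria, and the mitochondrial folate enzymes Mthfd2, Mthfd1l and Aldh1l2 oxidise that unit to formate or carbon dioxide. Asns makes asparagine from aspartate and glutamine, Pycr1 makes proline in mitochondria, and many of these genes are known targets of the stress-induced transcription factor ATF4. Liver is known for strong folate metabolism and for breaking down serine and glycine.

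Promoter letters are shown first for 4 of the genes that rose with OA: Asns and Pycr1, which hold the core of the C/EBP-ATF response element, Phgdh, which holds the core of the antioxidant response element, and Psat1, which held neither core. The sequences are RefSeq's (GRCm38.p6), 5′ to 3′ on the gene's own strand, and capitals mark the matched core. Asns is shown over 30 bases, chr6:7693214-7693243 on the minus strand. Pycr1 is shown over 150 bases before its RefSeq start, chr11:120643749-120643898 on the minus strand. Phgdh is shown over 150 bases, chr3:98339991-98340140 on the minus strand, and its capitals are the reverse complement of the core. Psat1 is shown over 150 bases before the start of 1 of its 2 RefSeq windows, chr19:15925060-15925209 on the minus strand.
Asns: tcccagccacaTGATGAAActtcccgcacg
Pycr1: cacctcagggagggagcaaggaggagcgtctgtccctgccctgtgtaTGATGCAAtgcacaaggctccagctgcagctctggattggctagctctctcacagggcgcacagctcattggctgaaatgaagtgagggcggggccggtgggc
Phgdh: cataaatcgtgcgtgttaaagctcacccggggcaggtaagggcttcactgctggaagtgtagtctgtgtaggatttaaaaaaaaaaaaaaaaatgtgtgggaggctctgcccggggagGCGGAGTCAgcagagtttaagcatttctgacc
Psat1: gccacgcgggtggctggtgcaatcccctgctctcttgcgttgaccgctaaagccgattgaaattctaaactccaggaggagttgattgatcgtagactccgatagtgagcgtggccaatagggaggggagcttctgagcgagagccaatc

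The search covered 300 bases, from 250 before to 50 after each RefSeq start, on both strands. Of the 10 genes, 9 had an entry, which gave 10 windows because Psat1 has 2, and Aldh1l2 had none. The C/EBP-ATF core, TGATGNAA, stood in the windows of Asns and Pycr1, and in 3.97% of all 32851 windows. The antioxidant core, TGACNNNGC, stood in those of Asns, Phgdh and Psph, and in 12.4% of all windows. The E-box, CACGTG, stood in none of the 10 windows and in 7.15% of all windows. The Asns core lies inside the first exon of a transcript that GENCODE starts further upstream than RefSeq does. A match of letters is a description of the window and shows no binding.

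In the annotation (GENCODE release 21, GRCm38) all 10 genes are protein coding, and all but Mthfd1l lie on the minus strand. Psat1 spans chr19:15904678-15947337, Phgdh spans chr3:98313170-98339990, Shmt1 spans chr11:60788104-60811718 and Asns spans chr6:7675169-7693254. Reads were counted over whole genes, so the values below refer to the gene and not to an exon or UTR. By their annotated ends, Shmt1 overlaps Smcr8 on the opposite strand over 184 bases, Shmt2 overlaps Ndufa4l2 over 32 bases, and Aldh1l2 overlaps D10Wsu102e over 1056 bases. Whether counting used the strand was not given in the sources used here, so reads from these stretches cannot be told apart.

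Levels can be compared between genes only per length, and FPKM, the fragments scaled by transcript length and depth that the authors deposited, serves for that. On the FPKM scale, Shmt2 was the most abundant of the 10 genes in control cells, at 87.5 ± 2.92 (SD, n = 3). Phgdh followed at 39.0 ± 2.83, Asns at 34.1 ± 1.05 and Psat1 at 31.3 ± 1.83. Pycr1, the proline enzyme, was the least abundant at 2.36 ± 0.855. In counts the genes ran from 48 in a BBR library (Pycr1) to 5466 in an OA library (Shmt2), and all 10 passed the filter on low counts in every comparison. The coefficient of variation within a group ran from 0.749% (Mthfd1l in BBR+OA) to 21.6% (Aldh1l2 in BBR).

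**Figure D1:**
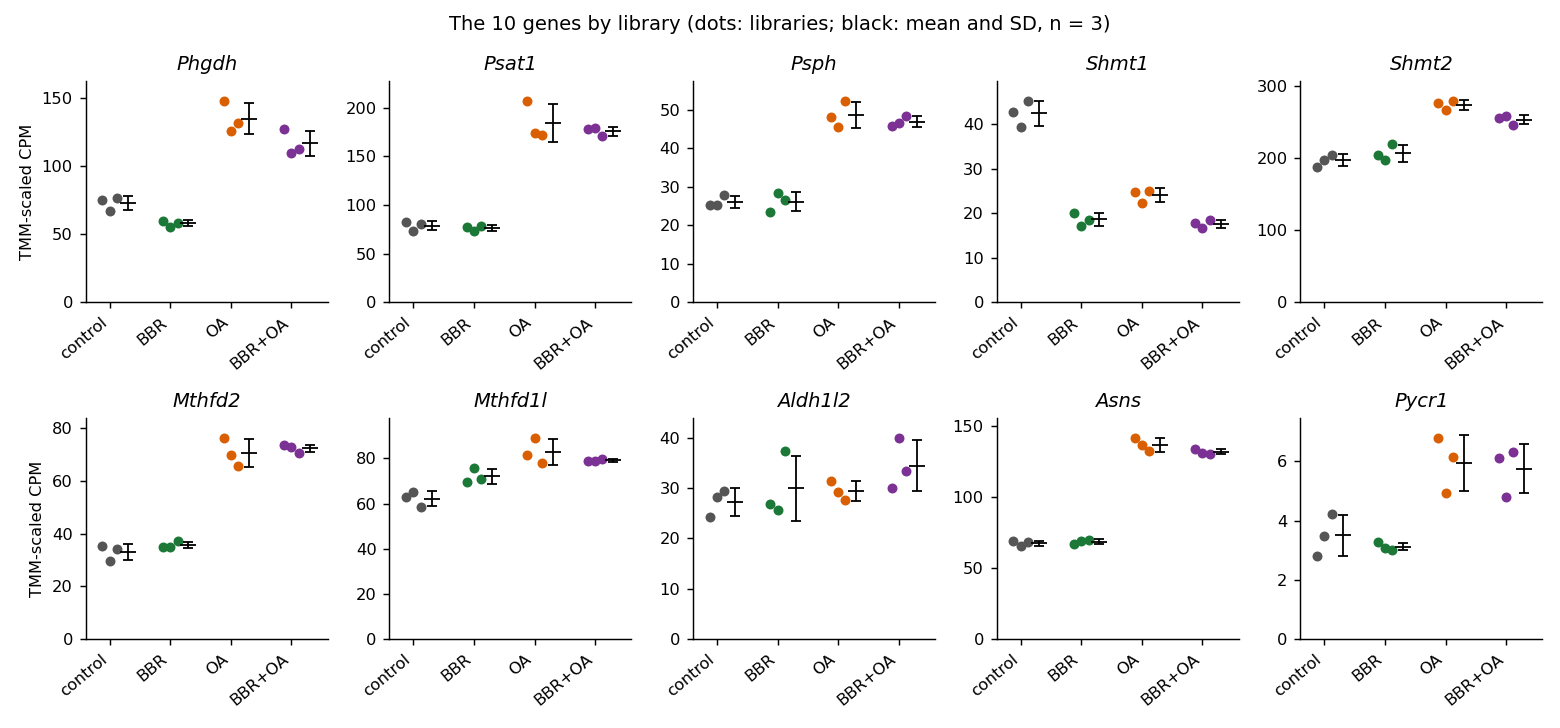
TMM-scaled CPM (vertical axis, linear from 0) of each of the 10 genes in the 12 libraries, by group; each dot is 1 library and the black mark shows the mean and SD of 3 libraries. Psat1 sat at 172 to 207 CPM in OA against 73.3 to 82.8 in control, while Shmt1 was highest in control, at 39.5 to 45.2 CPM.

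The OA comparison asked how these genes differed between cells given OA without BBR and control cells. Of the 12418 genes tested, 42.8% were called at an adjusted p-value under 0.05, 21.3% higher and 21.5% lower in OA than in control. Under upper quartile scaling the called genes divided into 2077 higher and 3216 lower, against 2643 and 2669 with TMM. Of the 10 genes, 8 were higher, 1 was lower and 1 was not called, and this split was the same under each scaling tried. Their median log2 fold change was 0.83, beside a median of -0.0060 over all genes tested. Without overlap between libraries, 8 of the 10 lay above control and 1 below. Of the 12742 genes kept by the filter over all 12 libraries, 24.8% lay above and 26.7% below in this way.

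The mRNA of the serine synthesis enzymes rose at each of the 3 steps. Enzyme activity and serine were not measured in these libraries. Psat1, the aminotransferase of the second step, held 82.8, 73.3 and 80.5 CPM in the 3 control libraries and 207, 174 and 172 CPM in the 3 OA libraries. Every OA library thus lay above every control library, by a factor of at least 2. The log2 fold change of Psat1 was 1.23 (SE 0.072, adjusted p = 1.32e-08), the largest of the 10. Phgdh, the dehydrogenase that commits carbon to serine, held 75.6, 66.9 and 76.5 CPM in control and 148, 126 and 132 CPM in OA, without overlap. Its log2 fold change was 0.89 (SE 0.068, adjusted p = 1.56e-07). Psph, the phosphatase of the last step, ran from 25.2 to 28.0 CPM in control and from 45.7 to 52.3 CPM in OA, with a log2 fold change of 0.90 (SE 0.070) and an adjusted p of 1.99e-07. Summed per length, the 3 enzymes reached 85.9 ± 4.88 FPKM in control and 171 ± 13.7 FPKM in OA (SD, n = 3).

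Of the 3 mitochondrial folate enzymes, Mthfd2 and Mthfd1l rose and Aldh1l2 was not called. Mthfd2, the dehydrogenase and cyclohydrolase of mitochondria, held 35.4, 29.8 and 34.2 CPM in control and 76.4, 70.0 and 65.7 CPM in OA. All OA libraries exceeded all control libraries, and Mthfd2 rose 2.14-fold (SE 0.073 on the log2 scale, adjusted p = 4.46e-08). Mthfd1l, which releases formate from folate, had means of 62.1 ± 3.40 CPM in control and 82.8 ± 5.70 CPM in OA (SD, n = 3) and rose by 0.42 (SE 0.060, adjusted p = 6.54e-05). For Aldh1l2, which oxidises the one-carbon unit to carbon dioxide, control libraries ran from 24.2 to 29.4 CPM and OA libraries from 27.7 to 31.5 CPM, so the groups overlapped. Its log2 fold change was 0.11, with a 95% interval from -0.057 to 0.29 (adjusted p = 0.270).

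The 2 serine hydroxymethyltransferases moved in opposite directions. Shmt2, the mitochondrial enzyme, held 188, 198 and 205 CPM in control and 277, 266 and 279 CPM in OA, with no overlap. Its log2 fold change was 0.48 (SE 0.050, adjusted p = 3.07e-06). Shmt1, the cytosolic enzyme, held 42.7, 39.5 and 45.2 CPM in control and 24.9, 22.4 and 25.1 CPM in OA. Every OA library lay below every control library, and the log2 fold change of Shmt1 was -0.81 (SE 0.072, adjusted p = 7.89e-07). Smcr8, the gene opposite Shmt1, was higher in OA than in control by 0.22 (SE 0.067, adjusted p = 0.0153), a change in the other direction.

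The mRNA of Asns and Pycr1, of asparagine and proline synthesis, rose as well. Asns, the asparagine synthetase, held 68.7, 65.3 and 68.0 CPM in control and 142, 136 and 132 CPM in OA. The groups were far apart for their spread, and the log2 fold change was 1.03 (SE 0.050, adjusted p = 2.78e-09). Pycr1, the last enzyme of mitochondrial proline synthesis, held 2.81, 3.48 and 4.21 CPM in control and 6.79, 4.92 and 6.13 CPM in OA. The groups did not overlap, but with 56 to 120 counts a library the estimate was less precise than the others: 0.76 (SE 0.17, adjusted p = 0.00273).

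The second OA comparison had BBR in both groups and shared no library with the first. In BBR+OA against BBR, 38.9% of 12416 genes were called, 20.1% higher and 18.8% lower, and upper quartile scaling divided the calls into 1976 higher and 2870 lower in place of 2496 and 2330. Of the 10 genes, 8 were higher and none was lower. The median log2 fold change was 0.86, beside -0.0061 over all genes tested. Without overlap between libraries, 8 of the 10 lay above BBR, beside 24.9% above and 24.1% below over 12742 genes.

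Psat1 again changed most, from 77.8, 72.9 and 78.1 CPM in BBR to 179, 179 and 171 CPM in BBR+OA. No BBR library came near the BBR+OA range, and the rise was 2.30-fold (SE 0.044 on the log2 scale, adjusted p = 1.88e-10). Mthfd2 rose by 1.02 (SE 0.050) and Asns by 0.94 (SE 0.042) on the log2 scale. Phgdh itself went from 60.2, 55.6 and 58.6 CPM in BBR to 128, 110 and 113 CPM in BBR+OA, so the BBR+OA libraries were higher in every case. The 95% interval of its log2 fold change was 0.88 to 1.13 (adjusted p = 1.36e-08). Pycr1 rose by 0.87 (SE 0.16, adjusted p = 5.99e-04), Psph by 0.85 (SE 0.068) and Shmt2 by 0.29 (SE 0.046, adjusted p = 1.87e-04). Ndufa4l2, which overlaps Shmt2, was lower by contrast (-0.58, adjusted p = 5.43e-06). Over the 4 groups Ndufa4l2 averaged 81.1 CPM in control, 119 in BBR, 75.6 in OA and 79.4 in BBR+OA, so it was highest in BBR. D10Wsu102e, which overlaps Aldh1l2, was called in none of the comparisons. Mthfd1l was called at 0.14 (SE 0.047, adjusted p = 0.0339), and this call was lost without any 1 of 5 of the 6 libraries. The 2 genes without a call were Aldh1l2 and Shmt1. Aldh1l2 ran from 25.6 to 37.3 CPM in BBR and from 30.0 to 39.9 CPM in BBR+OA, a difference of 0.20 with a 95% interval from -0.070 to 0.47. Without BBR replicate 3, the highest of the BBR libraries, that difference was 0.39 (adjusted p = 0.0122). Shmt1 held 20.2, 17.3 and 18.6 CPM in BBR and 17.9, 16.7 and 18.5 CPM in BBR+OA. These groups overlapped, and the difference was -0.088 with a 95% interval from -0.26 to 0.084 (adjusted p = 0.418).

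**Figure D2:**
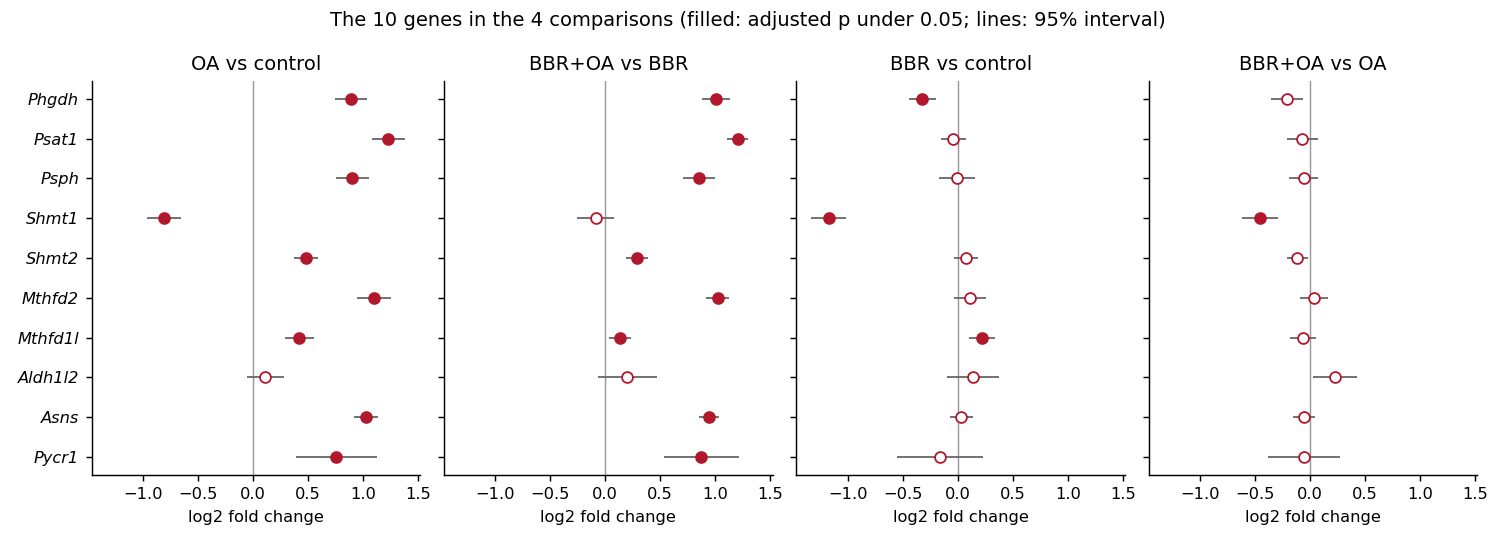
Log2 fold change (horizontal axis) of the 10 genes in the 4 comparisons; points are estimates, filled where the adjusted p was under 0.05, and lines are 95% intervals. In both OA comparisons 9 points lie to the right of 0, 8 of them filled and Psat1 furthest, and in both BBR comparisons Shmt1 lies furthest to the left, at -1.17 and -0.45.

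The BBR comparison asked what the drug did without added fatty acid, and it used the same control libraries as the comparison of OA with control. Of 12555 genes tested, 27.7% were called, 13.2% higher and 14.5% lower in BBR. Among the 10 genes 3 were called, Mthfd1l higher and Shmt1 and Phgdh lower, a share close to that of all genes. Their median log2 fold change was 0.015, beside -0.00085 over all genes tested.

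Shmt1 changed most, from 42.7, 39.5 and 45.2 CPM in control to 20.2, 17.3 and 18.6 CPM in BBR. The lowest control library held nearly 2 times the highest BBR library. The log2 fold change of Shmt1 was -1.17 (SE 0.074, adjusted p = 2.29e-08), and it was the only 1 of the 10 genes with at least a 2-fold change here. Smcr8, on the opposite strand, was higher by 0.29 (SE 0.048, adjusted p = 2.40e-04). Phgdh went from 75.6, 66.9 and 76.5 CPM to 60.2, 55.6 and 58.6 CPM, without overlap, and fell by 0.32 (SE 0.059, adjusted p = 6.63e-04). Mthfd1l ran from 58.4 to 64.9 CPM in control and from 69.7 to 76.0 CPM in BBR, without overlap, and rose by 0.22 (SE 0.055, adjusted p = 0.00603). For the remaining 7 genes the estimates ran from -0.16 (Pycr1) to 0.14 (Aldh1l2). The 95% interval of Psat1 was -0.16 to 0.076, that of Psph -0.17 to 0.16, and that of Asns -0.069 to 0.14, while that of Pycr1 was wider, -0.55 to 0.23. A miss of the threshold does not show that these genes held the same level.

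The second BBR comparison had OA in both groups. In BBR+OA against OA, 4.59% of 12278 genes were called, 1.95% higher and 2.63% lower. The 563 calls behind this share became 373, 230 and 216 without BBR+OA replicates 1, 2 and 3, and 249 without OA replicate 2. Without overlap between libraries, 2 of the 10 genes lay below OA, beside 11.6% below and 11.9% above over 12742 genes. Of the 10 genes Shmt1 was called, and the median log2 fold change of the 10 was -0.062, beside -0.00031 over all genes tested. Shmt1 went from 24.9, 22.4 and 25.1 CPM in OA to 17.9, 16.7 and 18.5 CPM in BBR+OA, with every BBR+OA library below every OA library. Its log2 fold change was -0.45 (SE 0.077, adjusted p = 0.00377). Phgdh went from 148, 126 and 132 CPM to 128, 110 and 113 CPM, with 1 BBR+OA library inside the OA range. Its log2 fold change was -0.21 (SE 0.068, adjusted p = 0.0908). Phgdh passed the threshold without BBR+OA replicate 1 (-0.28, adjusted p = 0.0415). It also passed without the low-count filter (adjusted p = 0.0269) and with the replicate number as a block (adjusted p = 0.00170). Under the other 9 of 12 alternative fits it was not called. Shmt2 was lower in all 3 BBR+OA libraries, at 256, 258 and 247 CPM against 277, 266 and 279 CPM in OA, but was not called (-0.12, SE 0.045, adjusted p = 0.175).

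The interaction, the BBR effect with OA minus the BBR effect without OA, was tested on all 12 libraries. Of 12742 genes, 12.2% were called, 6.87% positive and 5.31% negative. Of the 10 genes, Shmt1 and Mthfd1l were called. For Shmt1 the term was 0.73 (SE 0.11, 95% interval 0.50 to 0.96, adjusted p = 2.19e-04): the fall with BBR was smaller where OA was present. The same term says that the fall of Shmt1 with OA was smaller where BBR was present. For Mthfd1l the term was -0.28 (SE 0.079, adjusted p = 0.0257), from a rise of 0.22 without OA to a value of -0.067 with it that was not called. This call was lost without control replicate 3, OA replicate 2 or BBR replicate 2, with adjusted p-values from 0.0573 to 0.0811. The term for Psat1 was -0.019, with a 95% interval from -0.21 to 0.17, and that for Asns was -0.078, with a 95% interval from -0.21 to 0.051.

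**Figure D3:**
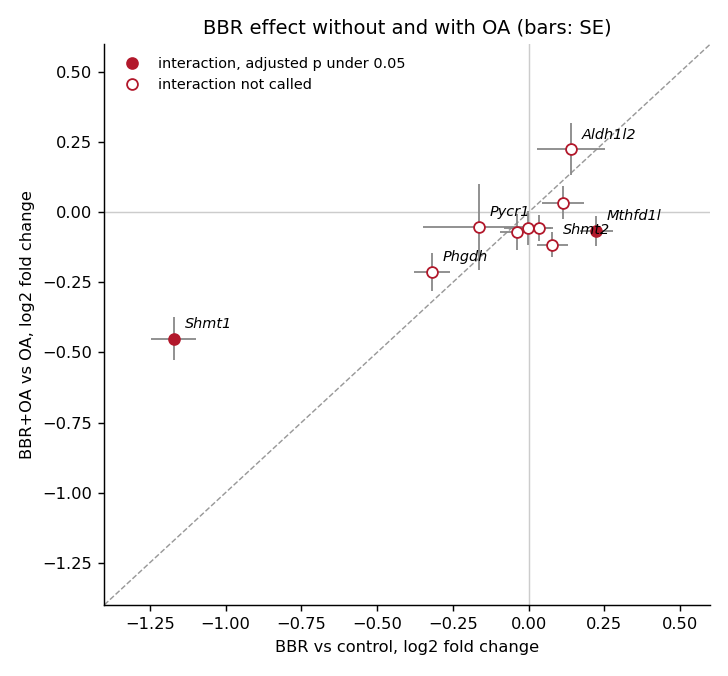
Log2 fold change with BBR in the absence of OA (horizontal axis) and in its presence (vertical axis) for the 10 genes, with bars of 1 SE; the dashed line marks equal effects and filled points are genes whose interaction was called. Shmt1 lies above the line, at -1.17 without OA and -0.45 with it, and Mthfd1l lies below it, at 0.22 and -0.067.

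The balance between the mRNA of mitochondrial and of cytosolic enzymes can be read from FPKM ratios within a library. The ratio of Shmt2 to Shmt1 was 4.68, 5.52 and 4.79 in the control libraries and 11.6 to 12.8 in the BBR libraries. It was 11.9 ± 0.0898 with OA (SD, n = 3), and 14.5, 16.8 and 14.3 with both agents. All treated libraries were thus above all control libraries, and BBR and OA alone overlapped. The parts differed: in BBR the ratio changed with Shmt1, which fell while Shmt2 had no call, and in OA it changed with both. The ratio of Mthfd2 to Mthfd1, the cytosolic enzyme that carries out the corresponding steps, was 0.663 ± 0.0567 in control, 1.03 ± 0.104 in BBR, 1.58 ± 0.124 in OA and 1.73 ± 0.0733 in BBR+OA (SD, n = 3). Mthfd1 averaged 78.1 CPM in control, 54.4 in BBR and 69.1 in OA. Mthfd2 averaged 33.1 CPM in control, 35.7 in BBR, where it had no call, and 70.7 in OA. The ratio of Aldh1l2 to its cytosolic counterpart Aldh1l1 was 0.0996 ± 0.0134 in control and 0.191 ± 0.0185 in OA, although Aldh1l2 itself had no call, and Aldh1l1 fell by 0.82 in log2 terms (SE 0.057, adjusted p = 6.10e-08). No test was run on the ratios. An exact two-sided permutation test of 3 against 3 libraries cannot go below 0.1.

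**Figure D4:**
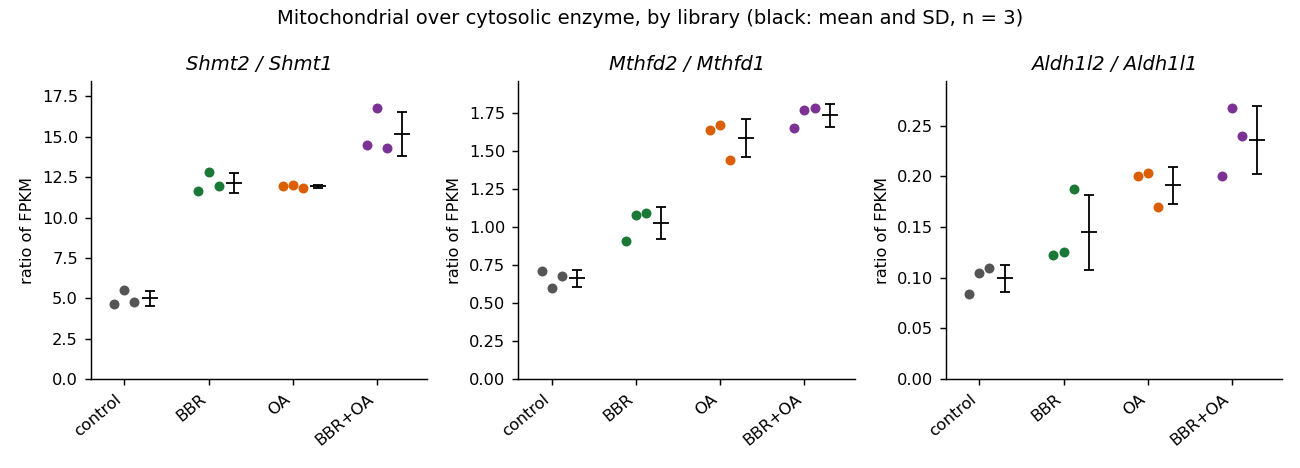
Ratio of FPKM (vertical axis, from 0) of a mitochondrial enzyme to its cytosolic counterpart in each library, by group; dots are libraries and black marks show the mean and SD of 3 libraries. The ratio of Shmt2 to Shmt1 lies between 4.68 and 5.52 in control and at or above 11.6 in every treated library.

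The other genes of the pathway were taken from a list of 40 symbols, of which 39 were in the files and all of these were tested. In OA against control, 15 of the 39 were higher and 8 lower, with a median log2 fold change of 0.098, and under upper quartile scaling 11 were higher and 9 lower. Over all genes tested, 21.3% were higher and 21.5% lower. Both purine enzymes that use formyl folate rose, Atic by 0.22 (SE 0.048, adjusted p = 0.00221) and Gart by 0.22 (SE 0.055, adjusted p = 0.00553). In the proline branch Aldh18a1, which makes the precursor that Pycr1 reduces, rose by 0.60 (SE 0.081, adjusted p = 3.88e-05), and Aldh4a1, which takes part in proline breakdown, fell by 0.61 (SE 0.070, adjusted p = 9.06e-06). Aspg, an asparaginase, went from 19.2 to 10.1 CPM and fell by 0.92 (SE 0.10, adjusted p = 7.98e-06), in contrast to Asns. Of the 4 genes of asparagine breakdown and aspartate supply 1 rose, Got1, which links aspartate to oxaloacetate, by 0.36 (SE 0.052). Of the 4 glycine cleavage genes 3 rose and Amt fell by 0.71 (SE 0.10, adjusted p = 7.95e-05). Of the 14 folate cycle and transport genes 5 rose and 3 fell, with the fall of Aldh1l1 given above among them. Of the 8 genes of serine breakdown and transport 3 rose and 1 fell, and the amino acid transporter Slc38a2 rose by 0.36 (SE 0.054, adjusted p = 1.01e-04).

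In BBR against control 5 of the 39 were higher and 17 lower, with a median of -0.13. Over all genes tested, 13.2% were higher and 14.5% lower. Ftcd, which breaks down histidine and passes its one-carbon unit to folate, went from 42.6 to 21.6 CPM and fell by 0.97 (SE 0.062, adjusted p = 2.31e-08). Mthfs fell by 0.81 (SE 0.18, adjusted p = 0.00254). Of the 4 glycine cleavage genes 3 fell, among them Amt by 0.56 (SE 0.087) and Gldc by 0.50 (SE 0.060), and 1 rose. Both purine enzymes fell, Gart by 0.36 (SE 0.050, adjusted p = 5.16e-05) and Atic by 0.15 (SE 0.045, adjusted p = 0.0204). The proline and ornithine genes gave 4 lower and none higher of 7, among them Pycrl by 0.44 (SE 0.095) and Prodh by 0.36 (SE 0.086). Of the 4 genes of asparagine breakdown and aspartate supply 2 fell and none rose, Asrgl1, an asparaginase, by 0.68 (SE 0.13, adjusted p = 0.00113) and Aspg by 0.39 (SE 0.092, adjusted p = 0.00427). Of the 8 genes of serine breakdown and transport 2 rose and 1 fell, and the transporters Slc1a4 and Slc38a2 rose by 0.34 (SE 0.056) and 0.29 (SE 0.046). Of the 14 folate cycle and transport genes 2 rose and 5 fell.

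In BBR+OA against BBR, 16 of the 39 were higher and 5 lower, beside 20.1% and 18.8% of all genes tested. Aldh18a1 went from 25.8 to 48.6 CPM (log2 fold change 0.92, SE 0.056, adjusted p = 2.00e-08), the folate carrier Slc19a1 from 13.8 to 24.1 CPM (0.80, SE 0.072) and Ftcd from 21.6 to 37.6 CPM (0.80, SE 0.062). Gart rose by 0.51 (SE 0.045, adjusted p = 7.32e-07) and Prodh by 0.62 (SE 0.076). In BBR+OA against OA, 1 of the 39 was called, beside 4.59% of all genes tested. Gldc, the decarboxylase of glycine cleavage, went from 51.5 to 37.5 CPM and fell by 0.46 (SE 0.059, adjusted p = 4.03e-04). The interaction was called for 13 of the 39, with 12 positive terms and 1 negative, and 8 were called without BBR+OA replicate 3. Over all genes tested, 6.87% had a called positive term and 5.31% a called negative one. The positive terms included Ftcd at 0.77 (SE 0.082, adjusted p = 1.78e-05), Amt at 0.74 (SE 0.15), Asrgl1 at 0.73 (SE 0.17) and Prodh at 0.55 (SE 0.10).

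**Figure D5:**
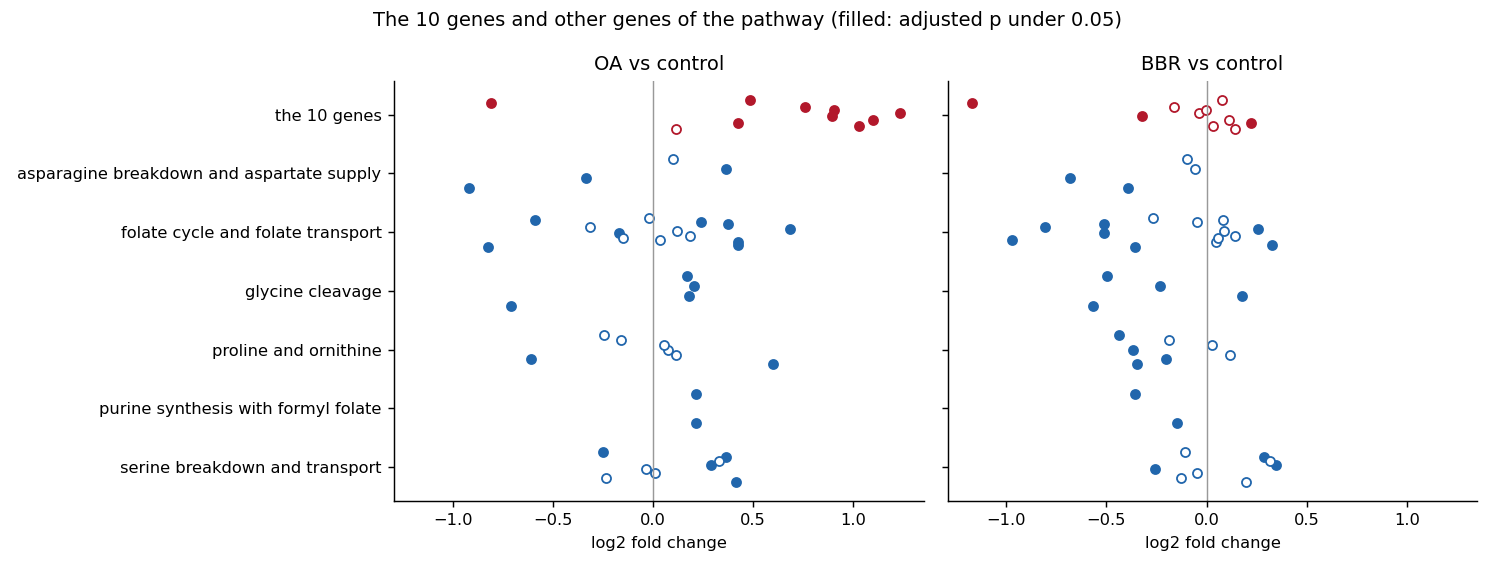
Log2 fold change (horizontal axis) in OA against control and in BBR against control for the 10 genes (red) and the 39 other genes of the pathway (blue) by role; each point is 1 gene, filled where the adjusted p was under 0.05. With OA 15 of the 39 genes were higher and 8 lower, and with BBR 5 were higher and 17 lower; both panels use the same control libraries.

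Genes of the ATF4 axis were counted beside the 10. Of 11 tested, 8 were higher and none lower in OA against control, beside 21.3% higher and 21.5% lower of all genes. In BBR+OA against BBR 7 were higher and 3 lower, beside 20.1% and 18.8% of all genes. In BBR against control 6 were higher and none lower, beside 13.2% and 14.5% of all genes. In BBR+OA against OA 1 was higher, beside 1.95% higher and 2.63% lower of all genes. Atf4, the transcription factor itself, rose with OA by 0.60 (SE 0.045, adjusted p = 1.49e-07) and, where BBR was present, by 0.47 (SE 0.043, adjusted p = 1.08e-06). With BBR the value for Atf4 was 0.12 (SE 0.046, adjusted p = 0.0746) without OA and -0.011 with it. Trib3, an ATF4 target that restrains ATF4, rose with OA by 0.77 (SE 0.051) and with BBR by 0.20 (SE 0.051, adjusted p = 0.00771). Ddit3, the stress factor CHOP, rose with OA by 0.83 (SE 0.086) and with BBR by 0.49 (SE 0.087, adjusted p = 4.90e-04). These values of Trib3 and Ddit3 are from the comparisons with control. Where OA was present, Trib3 averaged 105 ± 4.31 CPM with BBR and 106 ± 3.85 CPM without it (SD, n = 3). Ddit3 averaged 23.7 ± 3.17 CPM in BBR+OA and 21.6 ± 1.02 CPM in OA. The amount of mRNA of Atf4 does not give the amount of ATF4 protein, which is known to be set largely by translation.

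For the 3 genes whose group means ranged most widely, the genes closest in pattern over the 12 libraries were sought among 9624 others, by the root mean square distance of log2 CPM centred on each gene's mean. Closest to Psat1 was Cth, which makes cysteine in the last step of transsulfuration, at a distance of 0.094, followed by Mpc2, a subunit of the mitochondrial pyruvate carrier, at 0.11, and Serpina3k at 0.11. Mthfd2, the nearest of the 10 genes, stood at 0.11 too. Closest to Phgdh were Cltb at 0.088, Vars, the valyl-tRNA synthetase, at 0.11 and Fam84b at 0.11, with Asns at 0.15. Closest to Shmt1 were Mpeg1 at 0.11, Uhrf1 at 0.14 and the coagulation factor F7 at 0.16. None of the 10 genes came near Shmt1: the nearest, Shmt2, stood at 0.62. These distances describe likeness over libraries that share the same 4 groups.

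In these bulk libraries fewer cells of a type and less RNA per cell cannot be told apart. The 10 Kupffer cell markers, of the liver's macrophages, summed to 98.2 to 117 CPM in control, 137 to 180 in BBR, 96.8 to 113 in OA and 97.8 to 114 in BBR+OA, with none at 0. Of these 10 markers 2 were higher and 6 lower in OA against control, with a median log2 fold change of -0.53, and 1 was higher and 1 lower in BBR against control, with a median of 0.0996. Mpeg1, the gene closest to Shmt1, is known from macrophages. Its mean log2 CPM differed from control by -1.13 in BBR, where the Kupffer sum was higher than in control. The difference was -0.93 in OA and -1.38 in BBR+OA, where the Kupffer sums overlapped those of control. The 5 biliary markers summed to 590 to 722 CPM in control, 391 to 421 in BBR, 242 to 272 in OA and 199 to 240 in BBR+OA. The defining marker Krt7 was at 0 in control, and of the 4 markers that could be tested 3 were higher and 1 lower in BBR against control, and 1 higher and 1 lower in OA against control. The hepatocyte sum was 32906 to 34476 CPM in control, 33709 to 35783 in BBR, 37530 to 39271 in OA and 38461 to 40476 in BBR+OA, and so was higher in both groups with OA. Of the 9 features of that list (Serpina1a is listed 2 times) 4 were higher and 2 lower in OA against control, with a median of -0.012, and 4 were higher and 3 lower in BBR+OA against BBR. The 7 cycling markers summed to between 135 and 156 CPM in all libraries. Of the 6 that could be tested, 1 was higher and 2 lower in BBR against control, with a median of -0.27. In OA against control 1 was higher and 2 lower as well, with a median of -0.39. None was called in BBR+OA against BBR or against OA. The 6 endothelial markers summed to 51.0 to 54.0 CPM in control and 58.2 to 62.9 in BBR. They summed to 47.5 to 60.7 CPM in OA and 57.8 to 58.2 in BBR+OA. In BBR against control 3 of these 6 were higher and none lower, and in BBR+OA against BBR 2 of 5 were higher and 3 lower. The 6 stellate markers summed to between 16.6 and 23.0 CPM in all libraries. The part of other cell types in these results was not tested.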

How the data were processed

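Each library came with a table made by the authors, holding an estimated count and an FPKM value for each of 22471 features. The genome build named in the submitters' processing notes is mm10; the aligner, the counter and the use of strand are not given in the sources used here. The estimated counts that the authors deposited were rounded to whole numbers (2862 features had fractions). The deposited FPKM were used only to compare levels between genes. Of 21911 Ensembl identifiers, 99.7% were in GENCODE release 21.

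Each comparison was fitted on its 6 libraries in edgeR 4.0.16 (R 4.3.3): filterByExpr with a minimum count of 10, TMM scaling, and quasi-likelihood F tests (two-sided), adjusted by Benjamini-Hochberg over all genes tested. The interaction used all 12 libraries. A gene was called at an adjusted p under 0.05. SE were derived from the F statistic. CPM were TMM-scaled over the 12 libraries. The fit was tested on simulated data.

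The 10 genes and the lists were chosen with earlier results of these data known. Named beside the 10 were, per role and comparison, at most 2 called genes with the largest change and a mean of at least 1 CPM, the 3 nearest genes (mean of at least 5 CPM), and Atf4, Ddit3 and Trib3. 1 gene that this rule names is not reported here. Mthfd1 and Aldh1l1 as denominators, Smcr8, Ndufa4l2 and D10Wsu102e, and the interaction genes were named after their values were seen. Alternatives were 2 other scalings, DESeq2 1.42.0, no low-count filter, a replicate block, all 12 libraries in 1 fit, each library left out, and a 2-fold threshold.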

Additional observations from a re-analysis of the deposited data

Results flagged for a closer look

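The effect of BBR on 2 of the 10 genes differed between cells with and without OA by the interaction test. Shmt1 fell less with BBR where OA was present, with a log2 fold change of -0.45 against -1.17 without OA. Its interaction term was 0.73 on the log2 scale (adjusted p = 2.19e-04). The call held under every alternative fit tried, each library left out included, though the term stayed under a 2-fold change. For Mthfd1l the difference was -0.28 (adjusted p = 0.0257). Mthfd1l was higher in 3 of 3 BBR libraries than in any control library, and its BBR+OA libraries lay inside the range of the OA libraries.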

How the results depend on the processing

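Of 650 recomputed values of the 10 genes (50 results under the alternatives), 615 kept direction and call, 11 lost a call, 6 gained one, and 0 changed the direction of a called value. The changes of call fell on 5 results. Another 18, on 10 results that were not called under either setting, changed sign, to values of at most 0.078 in size. A threshold of 2-fold beside the adjusted p left 1 of the 10 genes in BBR against control, 0 in BBR+OA against OA, 3 in OA against control, 3 in BBR+OA against BBR and 0 in the interaction, and 0 genes of the rest of the pathway in each of the 4 comparisons. In BBR+OA against OA the count over the 10 genes was 2 without the low-count filter (Phgdh added, -0.22, adjusted p = 0.0269) and 1 to 2 with each library left out. The pathway count there was 2 without the filter and 2 with all 12 libraries in 1 fit, in place of 1. In the interaction the count over the 10 genes was 1 to 2 with each library left out, and DESeq2 added Shmt2 (-0.20, adjusted p = 0.0496). Mthfd1l in BBR+OA against BBR lost its call under upper quartile scaling (0.093), DESeq2 and all 12 libraries in 1 fit. The causes were not tested.

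Over all genes, the 563 calls in BBR+OA against OA became 373, 230 and 216 without BBR+OA replicates 1, 2 and 3 and 249 without OA replicate 2. The 1551 of the interaction became 1027 without OA replicate 2 and 1028 without BBR replicate 2. With the 2-fold threshold the counts were 276 (BBR against control), 31, 617 (OA against control), 550 (BBR+OA against BBR) and 161 (interaction). Upper quartile scaling put the median log2 fold change of all genes at -0.052 in OA against control.

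Whether the replicate numbers pair the samples was not settled, since the sources used here do not say what a number shares between groups. Same-numbered libraries of different groups correlated weakly, at -0.027 to 0.16, and 4 of 18 pairs passed 0.1. Libraries with different numbers correlated at -0.15 to 0.091, a range that overlaps the first. With the replicate number as a block the count in BBR+OA against OA was 2 of the 10 genes, 3 of the pathway and 1333 of all genes, Phgdh was called there (-0.21, adjusted p = 0.00170), and the interaction of Shmt2 was called (-0.18, adjusted p = 0.0325). All 6 libraries correlated best with their own number in 3 of the 4 comparisons (5 of 6 in BBR+OA against OA), a hint from the data and not from the design. Depth limits Pycr1 most, with 48 to 121 counts a library.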
